A study of Mus musculus with 16 samples.

Results

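Insulin signalling and glucose transport in muscle were followed through 10 genes: the insulin receptor (Insr), its substrates Irs1 and Irs2, the PI3-kinase regulatory subunit Pik3r1, the kinases Akt1 and Akt2, the Rab GTPase-activating proteins Tbc1d1 and Tbc1d4, and the glucose transporters Slc2a1 (GLUT1) and Slc2a4 (GLUT4). They were taken by name from the 19938 genes that the array represents with a probe set of a single gene symbol. Each gene was read from 1 probe set, the one with the highest mean over all 16 arrays, and all 10 passed the filter on dim signals. Values are log2 intensities normalized by the authors, so a difference of 1 is a doubling. Levels were compared between arrays and not between genes, because probe sets differ in brightness for reasons of their own.

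Insulin binds its receptor, a tyrosine kinase, which phosphorylates the substrate proteins and so recruits PI3-kinase. The lipid made by PI3-kinase brings AKT kinases to the membrane, and AKT phosphorylates Tbc1d4 (AS160), which otherwise holds GLUT4 vesicles inside the cell. Skeletal muscle takes up much of the body's glucose after a meal through GLUT4, and AMP-activated kinase acts on Tbc1d1 and Tbc1d4 during contraction. Most of this control is exerted on proteins by phosphorylation and movement, which an RNA measurement does not see.

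RNA came from the gastrocnemius of male C57Bl6J mice, 1 array per mouse, in 2 lines made to lose a calcineurin subunit. Calcineurin is a phosphatase switched on by calcium and calmodulin, and NFAT is its best known target. All 16 animals, controls included, had been on a high-fat diet, in which butter fat supplied 40% of the calories, for 8 weeks or longer, so no array shows muscle of chow-fed mice. The groups, of 4 arrays each, were labelled Ppp3cb KO (a whole-body knockout of the beta catalytic subunit), Ppp3cb WT (littermates), Ppp3r1 KO (loss of the regulatory subunit in skeletal muscle through Cre driven by Mlc1f, a myosin light chain gene active in muscle fibres and not in the other cells of the tissue) and Ppp3r1 WT (littermates). The sources used here give neither the animals' ages nor whether the Ppp3r1 WT littermates carried Cre. The tissue is bulk muscle, in which fewer cells of a type and less RNA per cell cannot be told apart. The summed level of 8 skeletal muscle fibre genes lay between 16.93 and 17.05 on every array.

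The targeted genes were read first because they check the labels. Ppp3cb read 10.48 and 10.22 in animals 18 and 5 of the group labelled Ppp3cb KO, but 11.74 and 11.61 in animals 6 and 9 of that group. Among the arrays labelled Ppp3cb WT it read 11.80 and 11.67 in animals 12 and 2, but 10.37 and 10.23 in animals 23 and 24. The Ppp3r1 line, in which Ppp3cb is not targeted, read 11.47 to 11.70. The measured value therefore goes against the label on 4 of the 8 arrays of that line, and comparisons within the line are given both by label and by Ppp3cb value, below or above 11. The arrays nearest that boundary read 10.48 and 11.61. Arrays grouped by the measured value stand for no genotype. Ppp3r1 averaged 9.17 ± 0.14 (SD, n = 4) on the arrays labelled Ppp3r1 KO and 9.49 ± 0.14 on their controls. It was lower on every KO array than on every control, although the difference of -0.32 (SE 0.13) was not called over all probe sets (limma, adjusted p = 0.372, exact permutation p = 0.0286). In the Ppp3cb line, where Ppp3r1 is not targeted, it was also lower on every array with Ppp3cb below 11, by -0.30 (SE 0.10). A drop of this size is therefore not particular to the arrays labelled Ppp3r1 KO.

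The 2 lines also stood apart as sets of arrays. The median over all 35557 deposited probe sets was 6.68 to 6.77 in the Ppp3cb line and 6.81 to 6.94 in the Ppp3r1 line. Line, breeding colony and any processing batch cannot be told apart, and this touches every comparison across lines below. The number of arrays, 4 a group, limits the precision of all values.

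**Figure D1:**
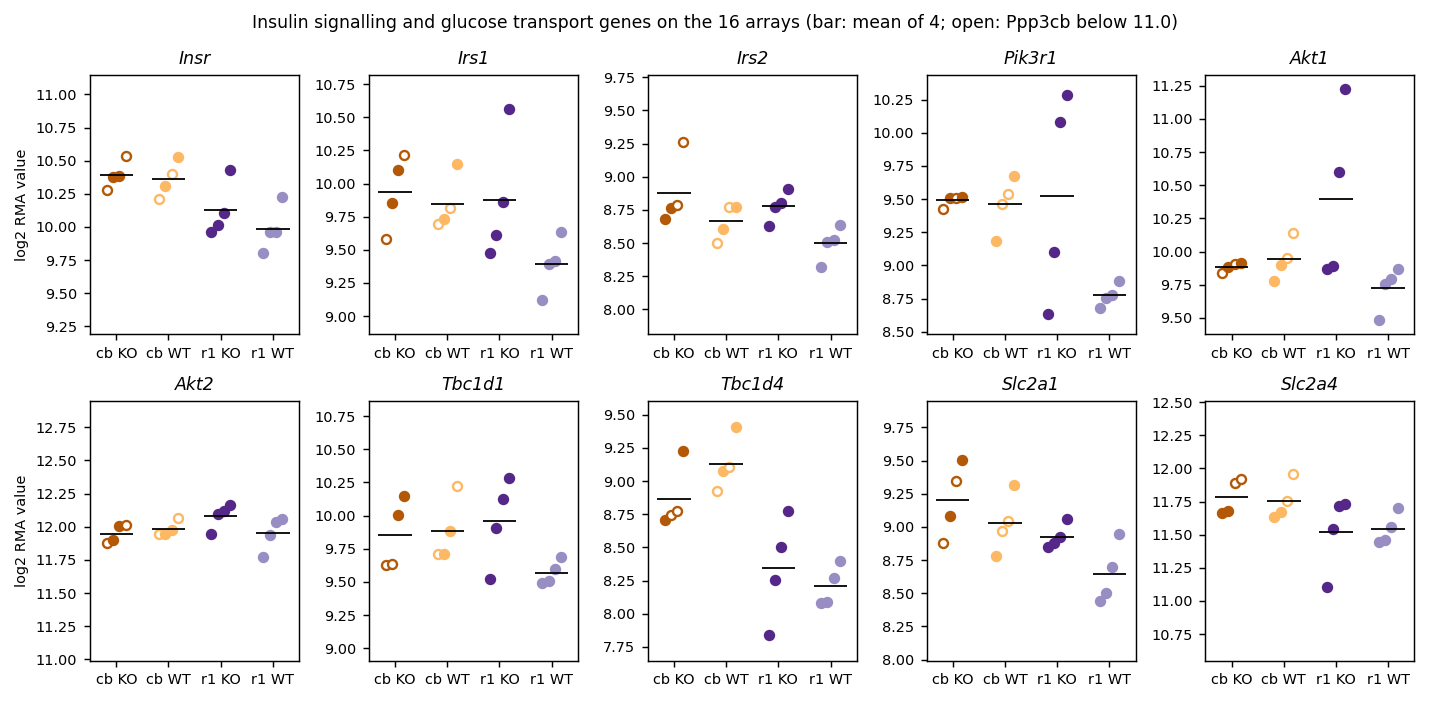
Log2 intensity of each of the 10 genes on every array (vertical axes) by group (horizontal axes), 1 point per mouse, with bars for the group mean and arrays ordered by value within a group. Groups are abbreviated cb KO and cb WT for the Ppp3cb line and r1 KO and r1 WT for the Ppp3r1 line, and open points are arrays with Ppp3cb below 11. Pik3r1 and Akt1 spread widely among the Ppp3r1 KO arrays, and Tbc1d4 sits higher in the Ppp3cb line.

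Knockout of Ppp3r1 in muscle came with higher measured values of most of the set, but no gene passed the test. Of the 10 differences 9 were above 0, with a median of 0.28, against a median of 0.02 over all 15252 probe sets tested, of which 54.2% were above 0. None of the 10 was called at an adjusted p under 0.05 (limma with Benjamini-Hochberg adjustment), and over all probe sets 0.00656% were called, a single probe set. At an unadjusted p under 0.05 there were 5 of 10, against 11.7% of all probe sets. Akt1 was the 1 gene of the set whose KO arrays all lay above all control arrays, by a very small margin. Such separation held for 3.15% of the probe sets tested.

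At the head of the pathway, the receptor and its substrates differed by less than could be called. Insr read 9.97, 10.01, 10.43 and 10.11 in Ppp3r1 KO animals 331, 335, 414 and 416, and 10.23, 9.96, 9.80 and 9.96 in controls 334, 336, 413 and 415. The groups overlapped, and the difference was 0.14 (SE 0.11, limma adjusted p = 0.612), or 0.041 without animal 414 and 0.080 without control 413. Irs1, the substrate most tied to muscle insulin action, read 9.61, 9.47, 10.56 and 9.86 in the KO animals, in the same order, and 9.42, 9.12, 9.40 and 9.63 in the controls. Its difference of 0.49 (SE 0.20, adjusted p = 0.374) became 0.26 without animal 414, whose value was the highest of the 8. Irs2, the other main substrate, read 8.63, 8.91, 8.78 and 8.80 against 8.52, 8.32, 8.51 and 8.64. The KO arrays overlapped the controls only through animals 331 and 415, with a difference of 0.28 (SE 0.12, adjusted p = 0.396, exact permutation p = 0.0571).

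Pik3r1 and Akt1 had the largest differences of the set. Pik3r1, which stabilises and restrains the catalytic subunit of PI3-kinase, read 10.08, 8.64, 10.28 and 9.10 in KO animals 331, 335, 414 and 416, and 8.75, 8.68, 8.78 and 8.88 in the controls. Animals 331 and 414 were far above every control, whereas animal 335 was below all of them. The group means were 9.53 ± 0.79 and 8.77 ± 0.08 (SD, n = 4), a difference of 0.75 (95% confidence interval 0.23 to 1.27, 1.68-fold), with a limma adjusted p of 0.363 and an exact permutation p of 0.143. The interval rests on 1 variance pooled over the 4 groups, and the Pik3r1 SD in the group labelled Ppp3cb KO was only 0.04. It therefore does not reflect the wide spread of the Ppp3r1 KO arrays alone. Akt1, the AKT kinase expressed in most tissues, read 10.60, 9.87, 11.23 and 9.89 in the KO animals and 9.79, 9.48, 9.76 and 9.87 in the controls. Animals 331 and 414 were again the highest, and the other KO arrays lay just above the highest control. The full separation rests on animal 335 at 9.8725 against control 415 at 9.8706. The means were 10.40 ± 0.65 and 9.73 ± 0.17, a difference of 0.67 (95% confidence interval 0.23 to 1.12, 1.59-fold). This interval too uses the pooled variance, with an Akt1 SD of 0.03 in the group labelled Ppp3cb KO. The limma adjusted p was 0.363 and the exact permutation p 0.0286, the smallest that 4 against 4 arrays allow.

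The size of both differences depended on animals 331 and 414. Leaving out animal 414 brought Akt1 to 0.40 and Pik3r1 to 0.50, and leaving out animal 331 brought them to 0.60 and 0.57. Weighting arrays by their fit gave 0.40 for Akt1 and 0.33 for Pik3r1, so that both moved by over 1.5 times. Without animal 416 the differences were 0.84 and 0.89, and the limma adjusted p-values 0.0968 and 0.127. Without animal 335 they were largest, at 0.85 for Akt1 and 1.05 for Pik3r1 (limma adjusted p = 0.199 for each). The animals' numbers fall into a lower series (331 to 336) and a higher one (413 to 416), each with 2 KO and 2 control arrays. Within them Akt1 differed by 0.60 and 0.74 and Pik3r1 by 0.64 and 0.86, with no test at that size.

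**Figure D2:**
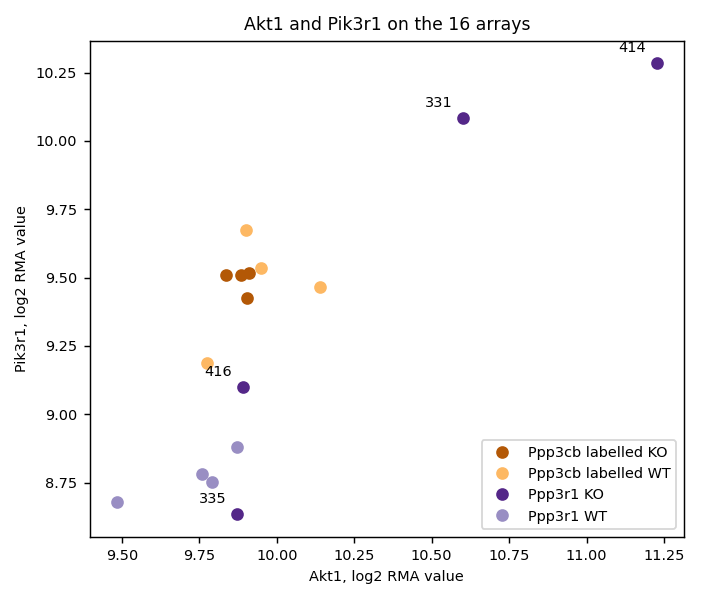
Log2 intensity of Pik3r1 (vertical axis) against Akt1 (horizontal axis) on the 16 arrays, coloured by group, with animal numbers beside the Ppp3r1 KO arrays. Ppp3r1 KO animals 331 and 414 lie apart at the upper right, and animals 335 and 416 lie near the controls.

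The promoters of these members are shown because both stand out among the 10 and varied together from array to array. RefSeq (GRCm38.p6) gave windows for 8 of the 10 genes, with none for Insr and Slc2a4. The 250 bases before the outermost annotated start are printed 5′ to 3′, on the minus strand for both genes, at chr12:112674885-112675134 for Akt1 and chr13:101768218-101768467 for Pik3r1. Capitals mark a match to the FoxO core motif.
Akt1: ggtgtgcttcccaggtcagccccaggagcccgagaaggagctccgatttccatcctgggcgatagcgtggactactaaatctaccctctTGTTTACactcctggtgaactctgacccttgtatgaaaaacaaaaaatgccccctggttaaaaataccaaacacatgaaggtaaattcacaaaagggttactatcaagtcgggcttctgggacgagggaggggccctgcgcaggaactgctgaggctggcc
Pik3r1: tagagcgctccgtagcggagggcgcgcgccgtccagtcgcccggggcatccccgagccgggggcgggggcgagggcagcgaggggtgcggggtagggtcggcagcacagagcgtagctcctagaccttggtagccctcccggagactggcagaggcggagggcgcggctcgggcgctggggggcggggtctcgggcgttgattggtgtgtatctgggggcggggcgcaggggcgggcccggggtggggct
The Pik3r1 stretch is 76.4% G and C and the Akt1 stretch 52.0%. Both strands of all windows, 250 bases before to 50 after the start, were searched for the FoxO core GTAAACA, the MEF2 motif CTANNNNTAG and the NFAT core GGAAAA. Among the 14 windows of the 8 members, 1 match was found, the FoxO core of Akt1 printed above as its reverse complement, 161 to 155 bases before the start and overlapping neither other motif. Of 32851 RefSeq windows, 3.65% held the FoxO core, 3.69% the loose MEF2-like pattern and 23.4% the NFAT core. A match is a description of letters, and which start the muscle used was not measured.

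Akt2, the AKT kinase most tied to insulin's effect on glucose uptake, varied little on the probe set used here. It read 12.09, 11.94, 12.17 and 12.12 in the Ppp3r1 KO animals and 11.94, 11.77, 12.03 and 12.06 in the controls, a difference of 0.13 (SE 0.07, limma adjusted p = 0.497), or 0.070 without control 336. A second Akt2 probe set, annotated with the same transcripts, gave 0.24 (SE 0.10, adjusted p = 0.374), so the RNA that each of them measures is uncertain.

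The Rab regulators and the transporters ended the set. Tbc1d1 read 9.52, 9.91, 10.28 and 10.13 in the KO animals and 9.69, 9.49, 9.51 and 9.59 in the controls. Animals 335, 414 and 416 were above every control and animal 331 was below 2 of them, with a difference of 0.39 (SE 0.16, limma adjusted p = 0.375). Tbc1d4 read 8.51, 8.26, 8.78 and 7.84 against 8.27, 8.09, 8.40 and 8.08. Its KO arrays held both the highest and the lowest value of the line, and the difference was 0.14 (SE 0.17, adjusted p = 0.746), running from -0.0069 without animal 414 to 0.30 without animal 416. Slc2a1, the transporter of basal glucose entry, read 8.88, 8.85, 8.93 and 9.06 against 8.70, 8.50, 8.44 and 8.95, a difference of 0.28 (SE 0.14, adjusted p = 0.445). Control 415 was the 1 control within the KO range.

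Slc2a4, the insulin-responsive transporter, had the smallest difference of the set. It read 11.54, 11.71, 11.10 and 11.73 in Ppp3r1 KO animals 331, 335, 414 and 416, and 11.56, 11.44, 11.46 and 11.70 in the controls. The means were 11.52 ± 0.29 and 11.54 ± 0.12 (SD, n = 4), a difference of -0.02 with a 95% confidence interval of -0.27 to 0.24 (limma adjusted p = 0.963). Animal 414, the highest array for Akt1 and Pik3r1, was the lowest for Slc2a4, and without it the difference was 0.12.

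**Figure D3:**
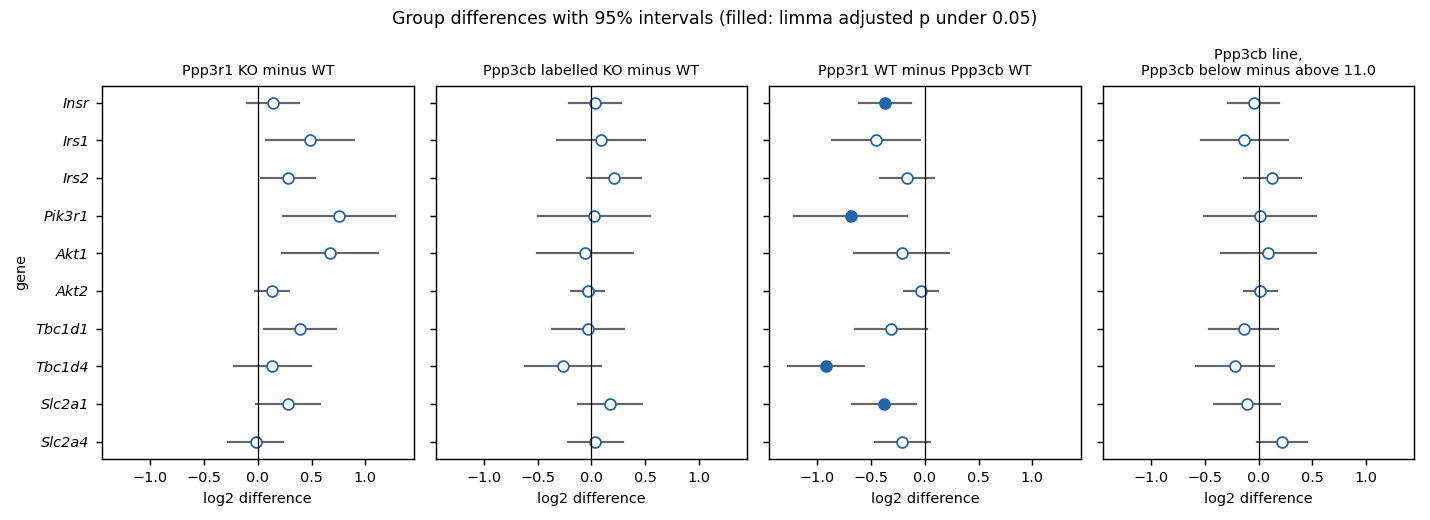
Log2 difference of each of the 10 genes (horizontal axes) with its 95% confidence interval from limma in the comparisons named above the panels. Each interval uses a variance pooled over the 4 groups, not the spread of the groups compared. Filled points are called at an adjusted p under 0.05, which occurs only between the lines, for Tbc1d4, Insr, Pik3r1 and Slc2a1.

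Among the Ppp3r1 KO arrays, several genes of the set varied more than most of the transcriptome. The highest Pik3r1 array was 3.14-fold above the lowest, and 0.721% of the probe sets tested had an SD at least as large in that group. For Akt1 the range was 2.56-fold and the share 1.27%, for Irs1 2.12-fold and 3.05%, and for Tbc1d4 1.91-fold and 5.66%. The median SD over all probe sets was 0.161 in this group and 0.144 in its controls. Slc2a1 was narrow by comparison, at 1.16-fold.

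Animals 331 and 414 were the highest 2 of the 8 arrays of their line for Pik3r1, Akt1 and Tbc1d4, and for 5.38% of all probe sets tested. They were the lowest 2 for none of the set and for 12.6% of all probe sets. These animals were singled out after their values were seen. The summed level of 5 tendon marker genes was also lowest in them, at 9.73 and 9.62, against 10.5 to 11.26 on the other arrays of the line. The summed level of 7 endothelial genes was 11.34 and 11.66 in them, and 11.77 to 12.12 in the others. Of the 9 marker lists, only these had both animals as the lowest 2 or the highest 2 of the line. The tendon genes were not uniform in the Ppp3r1 KO comparison, with 4 below 0 and Scx at 0.29 (SE 0.11), none called. The part of tissue composition in these values was not tested.

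The genes whose pattern was most like each member were ranked by Pearson's r over all 16 arrays after subtracting group means. The ranking drew on the 13919 genes tested, with predicted genes passed over. Arrays share library and scan effects, so r describes these arrays only. Pik3r1 varied most like Rps6, a ribosomal protein (r = 0.93), Asb11 (0.92) and Arhgap26 (0.91). Akt1, added to this ranking after its values were seen, varied most like Zpr1 (0.95), Asb11 (0.93) and Psmd2, a proteasome subunit (0.93). For both members the 2 arrays farthest from the median were Ppp3r1 KO animals 335 and 414. Without these 2, but with animal 331 kept and the group means unchanged, the r-values were 0.81, 0.84 and 0.85 for Pik3r1. For Akt1 they were 0.84, 0.80 and 0.80. The likeness without both 331 and 414 was not computed. Asb11, named for both, read 11.25, 10.21, 11.88 and 10.20 in KO animals 331, 335, 414 and 416, and 10.40 to 10.61 in the controls. Akt1 and Pik3r1 themselves had r = 0.89, and 0.76 over the same 14 arrays, which include animal 331. That r was 0.92 over the 8 arrays of the Ppp3r1 line and 0.38 over those of the Ppp3cb line.

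Slc2a4 varied most like Palld, an actin-binding protein (r = 0.90), Smox, spermine oxidase (0.90), and Ache, the acetylcholinesterase of the neuromuscular junction (0.89). Without Ppp3r1 KO animals 414 and 416, the 2 arrays farthest from the median for Slc2a4, these were 0.83, 0.81 and 0.77. Smox read 11.43, 11.92, 10.19 and 11.70 and Ache 8.47, 8.80, 7.58 and 9.09 in KO animals 331, 335, 414 and 416, both lowest in animal 414. The 3 genes most opposed to Slc2a4, a ranking added after the values were seen, were Pdlim3 (r = -0.89), Prpf19 (-0.89) and Trim63 (-0.88). Over the same 14 arrays these were -0.77, -0.75 and -0.75. Trim63 (MuRF1) is a ubiquitin ligase of muscle wasting. Tbc1d4 varied most like Fbxo32 (atrogin-1), the other well-known ligase of that kind (0.86), Gyg, the primer of glycogen synthesis (0.84), and Ifna12 (0.82). These were 0.80, 0.69 and 0.65 over 14 arrays, again without animals 414 and 416. Fbxo32 read 11.77, 11.09, 12.56 and 11.08 and Trim63 10.54, 9.97, 11.49 and 10.15 in the 4 KO animals, both highest in animal 414. Slc2a4 and Tbc1d4 were opposed to each other, with r = -0.76, and -0.59 over 14 arrays.

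The wider pathway was read from 7 lists with 103 genes, of which 94 matched a probe set and 90 were tested. In the Ppp3r1 KO comparison 51 were above 0 and 39 below, with a median of 0.03 against 0.02 over all probe sets. None was called, and the smallest adjusted p was 0.363. An unadjusted p under 0.05 was found for 10 of the 90, no larger a share than the 11.7% of all probe sets. The genes that follow are given as values. Eif4ebp1 (4E-BP1), the translation repressor that mTORC1 phosphorylates, had the largest difference, 0.92 (SE 0.26). Prkag2, a regulatory subunit of AMP-activated kinase, was at 0.57 (SE 0.14) and Prkag3, the muscle form of that subunit, at -0.61 (SE 0.24). Foxo3, the transcription factor that AKT keeps out of the nucleus, was at 0.34 (SE 0.11), and Trib3, a pseudokinase that binds AKT, also at 0.34 (SE 0.14). Igf1r, the receptor for IGF-1, was at 0.26 (SE 0.11), and Inppl1 (SHIP2), which removes a phosphate from the PI3-kinase product, at -0.41 (SE 0.17). Of the GLUT4 vesicle traffic genes 10 of 16 were above 0, and the examples with the smallest p were Rala at -0.18, Ralgapb at -0.16 and Rab10 at -0.13.

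**Figure D4:**
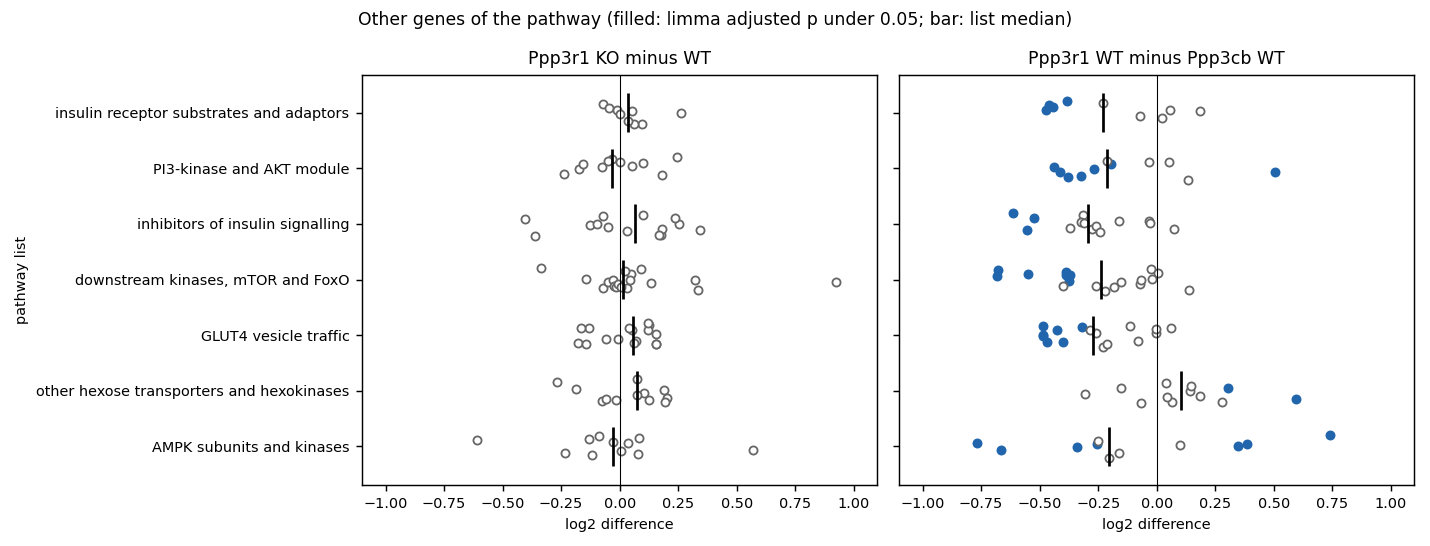
Log2 difference of each tested gene in the 7 pathway lists (horizontal axes), 1 point per gene, with the list median as a bar, in the comparisons named above the panels. Filled points are called at an adjusted p under 0.05; they appear only in the comparison of the WT groups of the lines.

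By label, no gene of the set passed the test in the Ppp3cb line. None was called, and over all probe sets 0% were called. Of the 10 differences 6 were above 0, with a median of 0.03, against 55.9% of all probe sets. They ran from -0.27 for Tbc1d4 (SE 0.17, 95% confidence interval -0.62 to 0.09) to 0.21 for Irs2 (SE 0.12), with a limma adjusted p of 0.9998 for all 10. None of the 10 had an unadjusted p under 0.05, against 1.73% of all probe sets. Since 4 labels go against the measured Ppp3cb, these values compare the groups as labelled only. Of the pathway lists, 58 genes were above 0 and 32 below, and none was called.

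The single arrays of the Ppp3cb line are given here as labelled, with animals 18, 5, 6 and 9 as KO and animals 12, 2, 23 and 24 as WT. Insr read 10.54, 10.28, 10.38 and 10.39 in the KO animals, within the WT range but for animal 18. Irs1 read 10.21, 9.58, 10.10 and 9.85 against 10.15, 9.73, 9.81 and 9.69, so that each group held high and low arrays. Irs2 read 8.79, 9.27, 8.76 and 8.68 against 8.61, 8.78, 8.77 and 8.50. Animal 5 held the highest Irs2 value of all 16 arrays, and without it the difference was 0.08. Pik3r1 was steady in the KO animals, at 9.51, 9.43, 9.51 and 9.51, and its WT values of 9.19 to 9.67 lay on both sides.

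Akt1 read 9.84, 9.90, 9.91 and 9.89 in the KO animals, also a narrow range, and 9.77, 9.90, 9.95 and 10.14 in the WT animals. No array of this line reached the 10.60 and 11.23 of Ppp3r1 KO animals 331 and 414. Akt2 read 12.01, 11.87, 12.00 and 11.90 against 11.98, 11.95, 11.95 and 12.07. Tbc1d1 read 9.63, 9.63, 10.15 and 10.01 against 9.71, 9.89, 10.22 and 9.71, an overlap of the whole range. Slc2a1 read 8.88, 9.34, 9.50 and 9.08 against 8.78, 9.32, 9.05 and 8.97, with a difference of 0.17 that was not called. Slc2a4 by label averaged 11.79 ± 0.13 and 11.75 ± 0.14 (SD, n = 4), a difference of 0.03, with the low and high arrays of the line divided evenly between the labels.

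Grouped by the measured Ppp3cb value, the same arrays gave a separation for Slc2a4. With Ppp3cb below 11 it read 11.89, 11.92, 11.96 and 11.75 in animals 18, 5, 23 and 24. With Ppp3cb above 11 it read 11.66, 11.68, 11.67 and 11.63 in animals 6, 9, 12 and 2. All 4 arrays low in Ppp3cb were above all 4 others, though animal 24 by a small margin. The means were 11.88 ± 0.09 and 11.66 ± 0.02 (SD, n = 4), a difference of 0.22 (95% confidence interval -0.01 to 0.45, 1.16-fold). The exact permutation p was 0.0286, the smallest this size allows, but over all probe sets the difference was not called (limma adjusted p = 0.389, and 0.0895 in a fit of that line alone). It was 0.19 to 0.26 when any 1 array was left out.

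The other 9 genes overlapped between these arrays, and none of the 10 was called, against 0.584% of all probe sets. Full separation upward, seen for 1 of 10, was seen for 6.58% of all probe sets. Differences ran from -0.22 for Tbc1d4 (SE 0.17) to the 0.22 of Slc2a4, with 5 genes above 0 and 5 below, where 53.5% of all probe sets were above 0. Tbc1d4 read 8.78 and 8.74 in animals 18 and 5 and 8.92 and 9.11 in animals 23 and 24, which are low in Ppp3cb. It read 9.23 and 8.70 in animals 6 and 9 and 9.08 and 9.41 in animals 12 and 2, which are high, so the arrays interleave. The untargeted subunit gene Ppp3r1 was at 9.53 ± 0.09 and 9.83 ± 0.18, lower on all 4 arrays low in Ppp3cb, at -0.30 (SE 0.10, adjusted p = 0.220). All 8 slow-fibre marker genes had differences below 0, with none called and a median of -0.58, and their summed level overlapped, at 13.28 to 14.78 against 13.37 to 15.07. By label, on the same arrays, all 8 were above 0, with a median of 0.66 and none called. Also below 0 by Ppp3cb value were all 5 fibroblast, all 5 tendon and 6 of 7 macrophage markers, none called. The 2 erythroid markers tested were above 0, and the other lists were mixed.

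**Figure D5:**
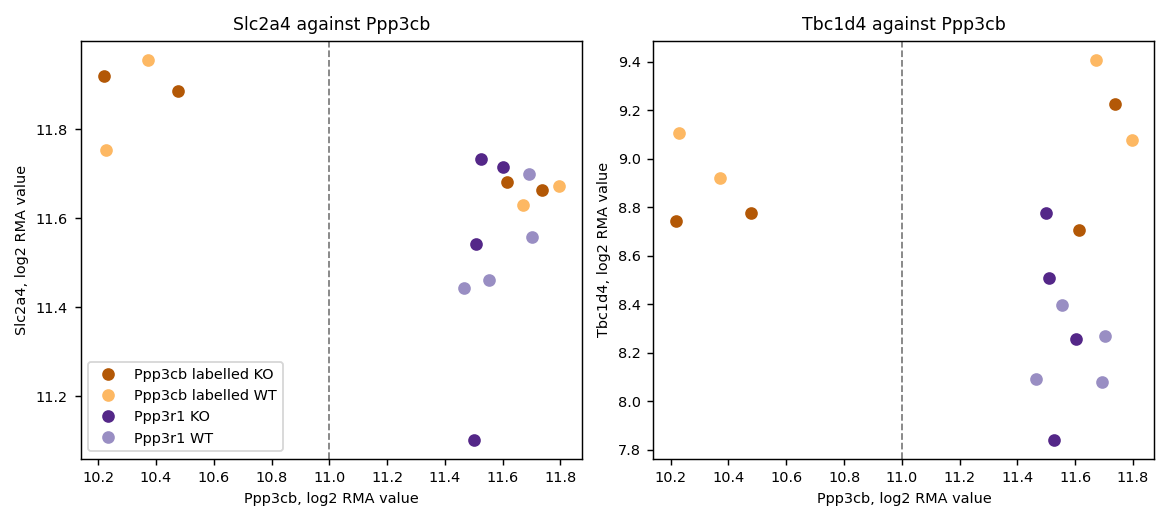
Log2 intensity of Slc2a4 and Tbc1d4 (vertical axes) against Ppp3cb (horizontal axes) on the 16 arrays, coloured by labelled group, with a dashed line at the boundary of 11. Within the Ppp3cb line (orange), Slc2a4 is at 11.75 to 11.96 left of the dashed line and at 11.63 to 11.68 right of it, and Tbc1d4 overlaps.

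In the pathway lists 43 genes were above 0 and 47 below in this comparison, none was called, and 13 had an unadjusted p under 0.05, against 13.7% of all probe sets. Txnip, which binds glucose transporters and restrains glucose uptake, had the smallest adjusted p of the lists, 0.0799 by limma, at -0.46 (SE 0.11). Pik3ip1, an inhibitor of PI3-kinase, was at -0.43 (SE 0.11, adjusted p = 0.106). Grb10, an adaptor that inhibits the insulin receptor, was at -0.36 (SE 0.11) and Socs3, an inhibitor induced by cytokines, at 0.49 (SE 0.20). None of these values passed the test.

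No gene of the set passed the test of a difference between the 2 knockout effects, each taken by its label. For Akt1 and for Pik3r1 the Ppp3r1 effect exceeded the Ppp3cb effect by 0.73 (SE 0.30 and 0.35), with a limma adjusted p of 0.821. Of all probe sets 0% were called in this comparison and 5.31% had an unadjusted p under 0.05.

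Between the WT groups, 4 genes of the set were lower in the Ppp3r1 line. They are the receptor, the PI3-kinase regulatory subunit, the GLUT4 vesicle regulator Tbc1d4 and the basal transporter Slc2a1. Of all probe sets 35% were called in this comparison, 24.3% lower and 10.7% higher, so that 4 of 10 is to be read against a broad difference between the lines. All 10 differences were below 0, with a median of -0.34, against -0.10 over the 15252 probe sets tested, of which 38.5% were above 0. The array medians over all 35557 deposited probe sets, given above, were instead higher in the Ppp3r1 line. This comparison and the Ppp3r1 KO comparison share the Ppp3r1 WT arrays.

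Tbc1d4 had the largest of these differences. It read 9.08, 9.41, 8.92 and 9.11 in Ppp3cb WT animals 12, 2, 23 and 24, and 8.27, 8.09, 8.40 and 8.08 in Ppp3r1 WT animals 334, 336, 413 and 415. Every Ppp3r1 WT array was below every Ppp3cb WT array, with means of 8.21 ± 0.15 and 9.13 ± 0.20 (SD, n = 4) and a difference of -0.92 (SE 0.17, 1.89-fold, limma adjusted p = 0.00134). It was called under each alternative tried. With any 1 array left out its adjusted p was at most 0.00637.

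Insr read 10.31, 10.53, 10.21 and 10.40 in the Ppp3cb WT animals, and of the Ppp3r1 WT values given above only the 10.23 of animal 334 reached that range. The difference was -0.37 (SE 0.11, limma adjusted p = 0.0199), and a second Insr probe set gave -0.41 (SE 0.13, adjusted p = 0.0220). Pik3r1 read 9.19, 9.67, 9.54 and 9.47, all above the Ppp3r1 WT arrays, with a difference of -0.69 (SE 0.25, 1.62-fold, adjusted p = 0.0387). Slc2a1 read 8.78, 9.32, 9.05 and 8.97, overlapping through control 415 at 8.95, with a difference of -0.38 (SE 0.14, adjusted p = 0.0462). These 3 calls were close to the threshold. With quantile normalization repeated over all arrays they were lost (adjusted p = 0.0737, 0.0853 and 0.145), as they were without the 4 arrays whose label and Ppp3cb value disagree (0.0629, 0.158 and 0.114). Leaving out Ppp3cb WT animal 2 or Ppp3r1 WT animals 336 or 413 also left Tbc1d4 alone, and leaving out Ppp3cb WT animals 23 or 24 or Ppp3r1 WT animal 334 left Tbc1d4 and Insr. Slc2a1 alone lost its call without Ppp3cb KO animals 5 or 9 or Ppp3r1 KO animal 335, which enter the test only through the shared variance (adjusted p = 0.0515, 0.0538 and 0.0535). Without Ppp3r1 KO animal 414, Irs1 was called as well.

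Irs1 and Tbc1d1 did not overlap between the WT groups but were not called, at -0.45 (SE 0.20, limma adjusted p = 0.0772) and -0.31 (SE 0.16, adjusted p = 0.125). With Pik3r1 and Tbc1d4 this made 4 of 10 genes fully separated downward, against 22.7% of all probe sets. Slc2a4 was at -0.21 (SE 0.12), Akt1 at -0.22 (SE 0.21), Irs2 at -0.17 (SE 0.12) and Akt2 at -0.03 (SE 0.07). None of these was called.

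Fibre type markers moved with the lines as well. The summed level of 8 slow-fibre genes was 13.28 to 15.07 on the Ppp3cb WT arrays and 10.90 to 12.94 on the Ppp3r1 WT arrays, and all 8 genes were called lower in the Ppp3r1 line. The 7 macrophage markers were also all called lower, with summed levels of 10.02 to 10.57 against 9.40 to 9.78. Of 5 fibroblast markers 3 were called lower, Lum at -0.98, Pdgfra at -0.69 and Dcn at -0.32, and 2 were above 0, not called. Their summed levels overlapped, at 12.97 to 13.24 against 12.52 to 13.00. Of 7 endothelial markers 2 were called lower, Pecam1 at -0.47 and Tek at -0.34, where 24.3% of all probe sets were. Another 3 were above 0, not called. The endothelial median was -0.05, against -0.10 over all probe sets, and the summed levels overlapped, at 11.86 to 12.06 against 11.77 to 11.97. Of 4 Schwann cell markers Pmp22 and Mbp were called lower, at -0.62 and -0.42, whereas S100b at 0.12 and Sox10 at 0.05 were not called. Among the 8 skeletal muscle fibre genes Mb (myoglobin) at -0.45 and Myh1, a fast myosin heavy chain, at -0.44 were called lower. No adipocyte, tendon or erythroid marker was called. The part of fibre type and other cells in the lower Tbc1d4, Insr, Pik3r1 and Slc2a1 was not tested.

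Of the 90 pathway genes tested, 31 were called lower and 6 higher in the Ppp3r1 WT group, against 24.3% lower and 10.7% higher over all probe sets. The median was -0.22, against -0.10 over all probe sets, and the counts per list below are to be read against the same shares. Lower calls were 7 of 18 downstream kinases, mTOR and FoxO genes, among them Mtor at -0.68 (SE 0.11, limma adjusted p = 0.000691) and Foxo1 at -0.68 (SE 0.15), with Rheb, Rptor, Mapkap1, Foxo3 and Gsk3b. They also were 7 of 16 genes of GLUT4 vesicle traffic, among them Rab8a at -0.48 (SE 0.11), a Rab acted on by Tbc1d4, and the fusion protein Stx4a (syntaxin 4) at -0.40 (SE 0.10). Sort1, which sorts GLUT4 into its vesicles, was at -0.43 (SE 0.11), and Clint1, Myo1c, Myo5a and Rab14 were the others. Ptpn1, the phosphatase that inactivates the insulin receptor, was at -0.61 (SE 0.09, adjusted p = 0.000394) and Grb10 at -0.55 (SE 0.14), with Phlpp1 as the third of 14 inhibitors.

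Adaptors called lower were 4 of 9, Shc1 at -0.46 (SE 0.09), Igf1r at -0.47 (SE 0.11), Cbl and Crk. In the PI3-kinase and AKT list 6 of 11 were lower, among them the catalytic subunit Pik3ca at -0.44 (SE 0.11) and Pdpk1, the kinase that activates AKT, at -0.41 (SE 0.13), with Pik3c2a, Pik3r2, Pik3r3 and Prkci. Pik3cd, the catalytic subunit found mostly in white blood cells, was higher at 0.50 (SE 0.12). The AMP-activated kinase list was split, with Prkaa1, a catalytic subunit, at -0.77 (SE 0.13, limma adjusted p = 0.000777) and Prkag2 at -0.67 (SE 0.14), and with Prkag3 at 0.74 (SE 0.24). Stk11 and Cab39 were the other lower genes and Prkab2 and Strada the other higher ones. Of the other hexose transporters and hexokinases 2 of 12 were called, both higher, Slc2a3 (GLUT3) at 0.59 (SE 0.15) and Slc2a9 at 0.30 (SE 0.11).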

How the data were processed

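RNA of 16 gastrocnemius muscles was measured on Affymetrix Mouse Gene 1.0 arrays. The log2 values deposited by the authors come from GCOS 1.0 and RMA per the submitters' processing notes. RMA corrects background, normalizes quantiles and summarises probes. Whether the lines were normalized jointly, and on which build, is not stated in these sources. Both deposited log2 tables were compared, and 0 values differed. The authors' ratio columns equalled the linear value over the line median and served no other use.

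Of 35557 probe sets, 21789 had 1 gene symbol, 1621 several and 12147 none listed. Genes with several probe sets were read from the brightest on average, which applied to 3 of the 10. Probe sets at or above the 30th percentile of mean signal (log2 6.18, 15252 probe sets) were fitted with limma 3.58.1 in R 4.3.3: 4 group means, intensity trend, 12 residual degrees of freedom, Benjamini-Hochberg adjustment over all of them, called under 0.05. Grouping by Ppp3cb value was fitted with the Ppp3cb line in 2 groups and the Ppp3r1 line by label. Markers are given by summed level and counts, with examples. Single genes were also compared by two-sided exact permutation tests. A summed marker level is the log2 of the summed linear values. The fit was tested on simulated data.

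Members, lists and comparisons were chosen with earlier results of these data known. All 10 genes and the targeted genes are named; so is every pathway list gene called in a comparison, and otherwise up to 3 per list with the smallest p, of which some are left out for length. The Txnip, Pik3ip1, Grb10 and Socs3 values by Ppp3cb were singled out after seeing them. Alternatives covered filter, normalization, variance prior, weights, threshold, each line alone, probe set choice, blocks by animal number, and each array left out. Leaving out the 4 arrays at odds with Ppp3cb was added after seeing the data.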

Additional observations from a re-analysis of the deposited data

Results flagged for a closer look

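Among 40 sets of 4 arrays (10 genes in 4 groups), 2 held an array far from the other 3, where chance gives about 1 in 20. Pik3r1 was lowest in Ppp3cb KO animal 5, at 9.43, with the others at 9.51, a gap of 0.950 of the range, which is narrow in that group. Tbc1d4 was highest in Ppp3cb KO animal 6, at 9.23, with the others at 8.70 to 8.78 and a gap of 0.866 of the range. Animal 6 is labelled KO and reads high in Ppp3cb.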

How the results depend on the processing

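The 50 differences (10 genes in 5 comparisons) were recomputed under 13 alternatives and with each of 16 arrays left out, and outside the comparison of WT groups no gene was called in any of them. In that comparison the count of 4 became 1 with repeated quantile normalization and 1 without the 4 arrays whose Ppp3cb contradicts the label, and ran from 1 to 5 with an array left out. Pik3r1 was at an adjusted p of 0.0517 with a robust variance prior (limma). The cause of these changes was not tested. Where arrays were left out, the fit also had fewer arrays.

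Signs turned only for small differences. Slc2a4 in the Ppp3r1 comparison was 0.0072 with repeated quantile normalization, 0.10 with array weights, 0.13 within the lower animal numbers, and -0.087 to 0.12 with an array left out. In that comparison Insr was -0.10 within the lower animal numbers and Tbc1d4 -0.0069 to 0.30 with an array left out. By Ppp3cb label, Tbc1d1 was 0.030 with array weights, and without the 4 arrays Insr was -0.0094, Irs1 -0.042 and Akt1 0.033. With an array left out the label differences ran from -0.0093 to 0.10 for Slc2a4, -0.068 to 0.094 for Pik3r1, -0.0027 to 0.21 for Irs1, -0.015 to 0.090 for Insr, -0.11 to 0.0092 for Akt1 and -0.13 to 0.082 for Tbc1d1. Between WT groups Akt2 was 0.012 with repeated quantile normalization, 0.0065 with array weights, and -0.070 to 0.026 with an array left out. In the difference of knockout effects Slc2a4 was 0.077 with array weights and -0.12 to 0.089 with an array left out, and Irs2 was -0.055 without the 4 arrays. By Ppp3cb value Akt2 was -0.0035 with array weights and -0.018 without the 4 arrays, and Slc2a1 0.063 without them. With an array left out, differences by Ppp3cb value ran from -0.019 to 0.24 for Irs2, -0.11 to 0.0043 for Insr, -0.012 to 0.051 for Akt2 and -0.082 to 0.081 for Pik3r1.

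No paired analysis was possible because no animal number is shared between groups. Blocking the Ppp3r1 line by lower and higher animal numbers, no gene was called, and the limma adjusted p of Akt1 and Pik3r1 was 0.529. Neither this block nor a fit of each line alone can give a comparison across lines. Over all probe sets, the 1 call in the Ppp3r1 comparison became 0 with that line fitted alone and 12 without animal 416.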
